A study of Mus musculus with 8 samples.

Results

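The selectins and leukocyte adhesion molecules of the liver endothelium are described here across 2 genotypes of mice. They are 9 genes, namely Selp, Sele, Selplg, Icam1, Icam2, Vcam1, Madcam1, Pecam1 and Aoc3, and each has 1 of the 25428 rows of the expression table, found by its gene symbol. The genes were put together with the difference between the genotypes in these same samples already known. Their differences are therefore given as a description, with their errors and without a test. Liver sinusoidal endothelial cells (LSECs), the fenestrated cells that line the liver capillaries, were isolated with magnetic beads against CD146 from female C57BL/6J mice aged 2 months and measured on Affymetrix arrays, in 4 Ctnnb1OE-EC samples and 4 Ctrl samples. Ctnnb1OE-EC mice carry a Clec4g-iCre transgene (tg/wt) together with a floxed Ctnnb1(Ex3) allele (fl/wt). Cre recombinase in Clec4g-expressing cells removes an exon of Ctnnb1 and leaves a β-catenin that escapes degradation, which activates Wnt signaling. Ctrl mice are labelled as wild type, and whether they carried 1 of the alleles is not said in their labels. Each sample pooled the cells of 2 mice, and the Cre driver is also active in the endothelium of the heart, where these mice have a functional defect that is part of the model.

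Leukocytes leave the blood in steps. Selectins on the endothelium catch passing cells by fucosylated and sialylated glycans on ligands such as PSGL-1, integrins on the slowed leukocyte then bind endothelial members of the immunoglobulin superfamily, and junctional molecules such as PECAM-1 take part in the passage through the vessel wall. P-selectin is stored in Weibel-Palade bodies with von Willebrand factor and can reach the surface within minutes, whereas E-selectin is made anew after a stimulus such as TNF or IL-1. In the healthy liver, sinusoids are known for low levels of selectins, and leukocytes there adhere largely through other molecules, while the larger veins carry P-selectin.

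The upstream sequences of the pair of endothelial selectins are shown because the genotype activates β-catenin, which acts on DNA through TCF/LEF factors, and because these were the 2 members whose groups did not overlap. They are the 250 bases before a transcript start of each gene, from RefSeq (GRCm38.p6). Selp starts on the plus strand of chromosome 1, and its bases are chr1:164115014-164115263. Those of Sele are chr1:164047984-164048233 on the plus strand, before a start that lies inside the annotated span of the gene. Capitals mark the match to a TCF/LEF motif.
Selp: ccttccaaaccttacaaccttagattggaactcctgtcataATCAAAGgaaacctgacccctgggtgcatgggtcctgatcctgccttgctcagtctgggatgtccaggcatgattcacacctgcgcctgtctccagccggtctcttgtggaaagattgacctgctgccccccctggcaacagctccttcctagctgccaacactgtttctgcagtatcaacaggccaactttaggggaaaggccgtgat
Sele: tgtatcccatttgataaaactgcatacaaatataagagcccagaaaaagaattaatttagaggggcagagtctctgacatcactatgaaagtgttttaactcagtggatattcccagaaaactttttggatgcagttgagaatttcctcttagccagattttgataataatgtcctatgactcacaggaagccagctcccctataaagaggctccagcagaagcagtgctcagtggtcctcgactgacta
The match in Selp is CTTTGAT read on the minus strand, 209 to 203 bases before the start. A search for CTTTGAT or CTTTGTT on both strands found a match in 8.06% of 32851 promoters of the same length, and in Selp alone of the 4 members with a promoter in the table, which were Selp, Sele, Icam1 and Madcam1. The NF-kB motif GGGNTTTCC, searched also with a second N after the first, so that matches can overlap, was present in 2.49% of promoters and in Madcam1 alone of the 4, where 3 matches lie between 83 and 61 bases before the start. The GATA motif AGATAA was present in 9.99% of promoters and in 0 of the 4. A match describes letters in this window and says nothing about binding. Only these exact strings were searched and other forms of the NF-kB, GATA and TCF/LEF sites were not. A promoter without a match can therefore still hold such a site.

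The values are log2 expression values, background corrected and quantile normalized by the authors, so that a difference of 1 is a doubling. The array gives no detection call. Background was therefore read from 1088 rows of olfactory receptors, genes with no known role in LSECs, whose 95th percentile lay between 3.60 and 3.83 in the 8 samples. Of the 9 members, 7 were above that level in all 8 samples, and Sele and Aoc3 were not. All 10 LSEC markers were above background in all samples. The row of Ctnnb1 is not confined to the removed exon, so its level (10.63 ± 0.07 in Ctnnb1OE-EC and 10.28 ± 0.26 in Ctrl, SD, n = 4 each; limma adjusted p = 0.361) does not check the deletion. Clec4g, whose promoter drives Cre, averaged 12.73 ± 0.09 in Ctnnb1OE-EC and 12.88 ± 0.03 in Ctrl (SD, n = 4 each). Axin2, a target of Wnt signaling, was higher in each Ctnnb1OE-EC sample than in any Ctrl sample (limma, log2 difference 2.14, SE 0.19, adjusted p = 0.0014). Ctnnb1OE-EC samples 3 and 4 stood apart from the others on the first principal component (43.1 and 36.3, against -26.6 to 3.59 for the other 6 samples). Values without these samples are given for Selp, Sele, Vcam1 and Aoc3, for genes whose call they end, and for the Weibel-Palade genes named.

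**Figure D1:**
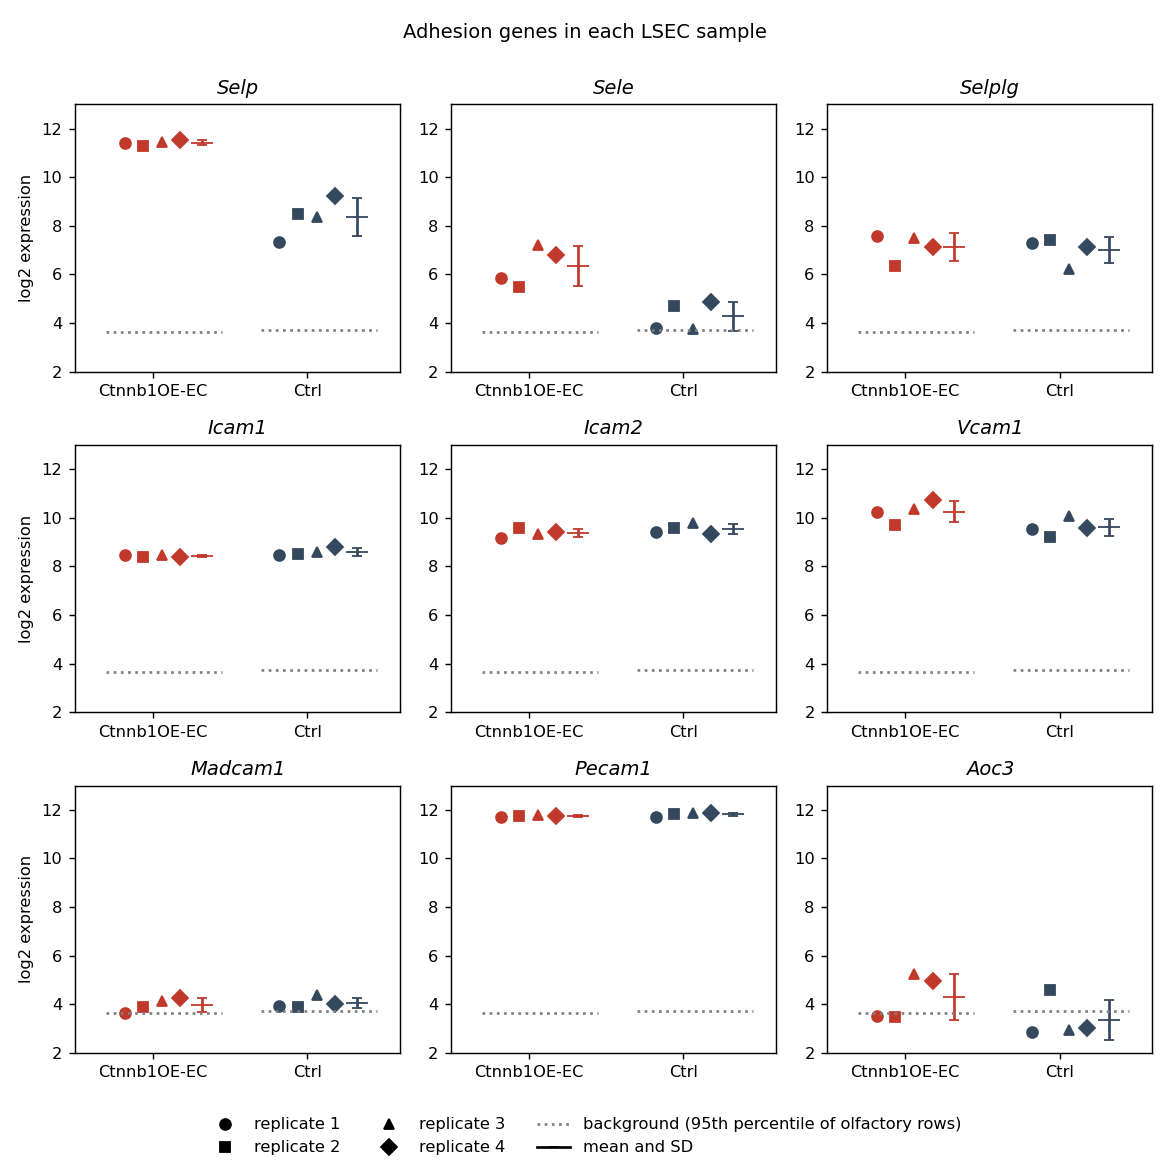
Log2 expression (vertical axis) of the 9 adhesion genes in 4 Ctnnb1OE-EC samples (left, red) and 4 Ctrl samples (right, blue), with the mean and SD of each group beside the points and the group's mean background level as a dotted line. Selp lies between 11.30 and 11.53 in Ctnnb1OE-EC and between 7.35 and 9.23 in Ctrl, while Pecam1 lies between 11.70 and 11.87 in all 8 samples.

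Selp and Sele, the endothelial selectins, were the 2 members in which every Ctnnb1OE-EC value lay above every Ctrl value. Over all rows, 3.55% separated in that direction and 4.04% in the opposite one, in which 0 of 9 members did. By limma with Benjamini-Hochberg adjustment over all rows, 1 member, Selp, passed an adjusted p of 0.05, and 0.920% of all rows did so. The members called were 2, Selp and Sele, without Ctnnb1OE-EC 2, and 0 without Ctnnb1OE-EC 3 and 4. In these fits 223 and 61 of all rows were called, against 234 with all samples. Since the members were chosen on this contrast, nothing is read from these counts. The median log2 difference of the 9 members was 0.11, and that of all rows was -0.01.

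Selp (Entrez 20344, chr1:164115264-164150026) encodes P-selectin, the selectin of activated platelets and of endothelium. Its log2 values were 11.42, 11.30, 11.45 and 11.53 in Ctnnb1OE-EC samples 1 to 4, against 7.35, 8.48, 8.38 and 9.23 in Ctrl samples 1 to 4. The lowest Ctnnb1OE-EC sample was 2.07 above the highest Ctrl sample. Means were 11.43 ± 0.09 in Ctnnb1OE-EC and 8.36 ± 0.77 in Ctrl (SD, n = 4 each), a log2 difference of 3.07 (SE 0.32, 95% interval 2.34 to 3.79) or 8.37-fold (5.06 to 13.9). Only 9 of the 25428 rows increased more. The spread also differed between the genotypes. The 4 Ctnnb1OE-EC samples spanned a 1.17-fold range and the 4 Ctrl samples a 3.69-fold range, with Ctrl 1 at the low end and Ctrl 4 at the high end. In Ctrl, 1.70% of all rows had a larger SD than Selp, and in Ctnnb1OE-EC 85.9% did. The difference was 3.00 without Ctnnb1OE-EC samples 3 and 4.

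Sele (Entrez 20339, chr1:164039614-164058487) encodes E-selectin, the cytokine-induced endothelial selectin. Its log2 values were 5.86, 5.50, 7.22 and 6.81 in Ctnnb1OE-EC samples and 3.77, 4.71, 3.75 and 4.85 in Ctrl samples. Ctrl 1 was close to the background and Ctrl 3 below it, and the highest values were those of Ctnnb1OE-EC 3 and 4. The gap between the groups was 0.64. Means were 6.35 ± 0.80 in Ctnnb1OE-EC and 4.27 ± 0.59 in Ctrl (SD, n = 4 each), a log2 difference of 2.07 (SE 0.41, 95% interval 1.15 to 3.00) or 4.21-fold (2.22 to 7.98). Of the 4 Ctrl values, 3 were above background. Without Ctnnb1OE-EC samples 3 and 4 the log2 difference was 1.41. Unlike Selp, Sele varied within Ctnnb1OE-EC over a 3.31-fold range, and only 2.17% of rows had a larger SD there.

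Selplg (Entrez 20345, chr5:113817798-113832528) encodes PSGL-1, the ligand of P-selectin on leukocytes. Values were 7.58, 6.34, 7.50 and 7.11 in Ctnnb1OE-EC samples, against 7.30, 7.41, 6.23 and 7.14 in Ctrl samples, and the groups overlapped. The log2 difference was 0.11 (SE 0.32, 95% interval -0.62 to 0.84), from means of 7.13 ± 0.56 in Ctnnb1OE-EC and 7.02 ± 0.54 in Ctrl (SD, n = 4 each). The lowest sample of each group was Ctnnb1OE-EC 2 and Ctrl 3. Those samples were also the lowest of their group in the mean level of 9 Kupffer cell markers, at -1.15 and -0.91 relative to the Ctrl mean, and of 6 B cell markers, at -0.42 and -0.61. Over all samples the Kupffer cell level ran from -1.15 to 0.72 in Ctnnb1OE-EC and from -0.91 to 0.76 in Ctrl, all 9 markers were above background in all 8 samples, and 0 of 9 passed the test. B cell markers ran from -0.42 to 0.94 in Ctnnb1OE-EC and from -0.61 to 0.52 in Ctrl, with 4 of 6 above background in all samples and 0 of 6 past the test. The level of 8 T and NK cell markers was lowest in another Ctnnb1OE-EC sample, number 4 (-0.44, with 0.21 in Ctnnb1OE-EC 2), and in Ctrl 3 (-0.16). The part of these cells in the Selplg values was not tested. In bulk RNA, fewer cells of a type and less RNA per cell cannot be told apart.

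Vcam1, Icam1 and Icam2 encode the immunoglobulin superfamily ligands of leukocyte integrins. VCAM-1 binds α4 integrins, whereas ICAM-1 and ICAM-2 bind the β2 integrin LFA-1. Vcam1 (Entrez 22329, chr3:116110020-116129688) had log2 values of 10.24, 9.71, 10.35 and 10.75 in Ctnnb1OE-EC samples and 9.56, 9.21, 10.09 and 9.59 in Ctrl samples. Ctrl 3 lay above Ctnnb1OE-EC 2, so the groups overlapped, although 3 of 4 Ctnnb1OE-EC samples were above all Ctrl samples. Means were 10.26 ± 0.43 in Ctnnb1OE-EC and 9.61 ± 0.36 in Ctrl (SD, n = 4 each), a log2 difference of 0.65 (SE 0.24, 95% interval 0.12 to 1.19) or 1.57-fold (1.08 to 2.28). This difference rested in part on Ctnnb1OE-EC samples 3 and 4. Without them it was 0.36.

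Icam1 (Entrez 15894, chr9:21015940-21028814) is induced by inflammatory cytokines in many endothelia. Its values were 8.46, 8.38, 8.47 and 8.39 in Ctnnb1OE-EC samples and 8.46, 8.52, 8.59 and 8.80 in Ctrl samples. Only Ctrl 1 lay within the Ctnnb1OE-EC range. The log2 difference was -0.17 (SE 0.10, 95% interval -0.39 to 0.05), from means of 8.43 ± 0.05 in Ctnnb1OE-EC and 8.59 ± 0.15 in Ctrl (SD, n = 4 each). Icam2 (Entrez 15896, chr11:106377656-106388139) is made by resting endothelium. Its values were 9.15, 9.58, 9.35 and 9.41 in Ctnnb1OE-EC samples and 9.43, 9.58, 9.79 and 9.33 in Ctrl samples, with overlapping groups. The means of Icam2 were 9.37 ± 0.17 in Ctnnb1OE-EC and 9.53 ± 0.20 in Ctrl (SD, n = 4 each), and the log2 difference was -0.16 (SE 0.13, 95% interval -0.45 to 0.13).

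Pecam1 (Entrez 18613, chr11:106654213-106715281), the junctional adhesion molecule CD31, had the narrowest spread of the members. It measured 11.70, 11.76, 11.77 and 11.75 in Ctnnb1OE-EC samples and 11.72, 11.83, 11.87 and 11.86 in Ctrl samples. The log2 difference was -0.07 (SE 0.08, 95% interval -0.25 to 0.11), with means of 11.75 ± 0.03 in Ctnnb1OE-EC and 11.82 ± 0.07 in Ctrl (SD, n = 4 each). Madcam1 (Entrez 17123, chr10:79664559-79668542), the addressin of gut venules that binds α4β7 integrin, stayed close to background. It measured 3.63, 3.87, 4.13 and 4.26 in Ctnnb1OE-EC samples and 3.94, 3.89, 4.36 and 4.02 in Ctrl samples. Groups overlapped, and the log2 difference was -0.08 (SE 0.16, 95% interval -0.44 to 0.28), with means of 3.97 ± 0.28 in Ctnnb1OE-EC and 4.05 ± 0.21 in Ctrl (SD, n = 4 each).

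Aoc3 (Entrez 11754, chr11:101330606-101339430) encodes VAP-1, an amine oxidase with an adhesive role in endothelium that smooth muscle also makes. It measured 3.51, 3.46, 5.25 and 4.95 in Ctnnb1OE-EC samples and 2.85, 4.57, 2.92 and 3.03 in Ctrl samples. It was above background in Ctnnb1OE-EC 3 and 4 and in Ctrl 2 alone. Means were 4.29 ± 0.94 in Ctnnb1OE-EC and 3.35 ± 0.82 in Ctrl (SD, n = 4 each), and the log2 difference of 0.94 (SE 0.51, 95% interval -0.20 to 2.09) was 0.14 without Ctnnb1OE-EC samples 3 and 4. The same 3 samples had the highest mean level of 5 smooth muscle markers, at 1.80 and 2.02 in Ctnnb1OE-EC 3 and 4 and 1.91 in Ctrl 2 relative to the Ctrl mean. In the other samples that level was -0.57 and 0.56 in Ctnnb1OE-EC and -1.01 to 0.09 in Ctrl. Among the markers, 4 of 5 were above background in all 8 samples and 0 of 5 passed the test. Tagln, an actin-binding protein of smooth muscle, measured 5.24, 6.31, 7.34 and 7.57 in Ctnnb1OE-EC samples and 5.11, 7.22, 5.19 and 5.70 in Ctrl samples. The part of smooth muscle RNA in the Aoc3 values was not tested.

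**Figure D2:**
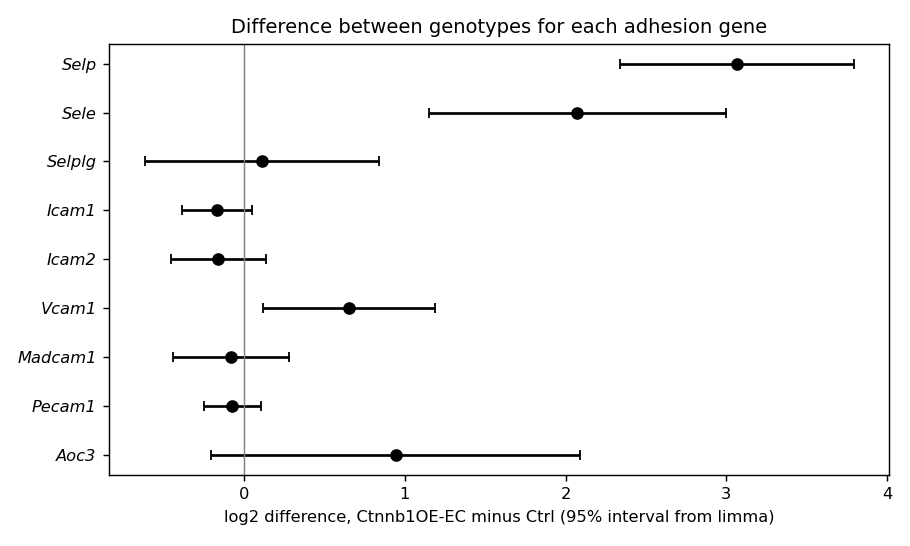
Log2 difference between Ctnnb1OE-EC and Ctrl (horizontal axis) for each of the 9 adhesion genes, as points with 95% intervals from limma (n = 4 each) and a line at 0. The intervals of Selp (2.34 to 3.79), Sele (1.15 to 3.00) and Vcam1 (0.12 to 1.19) lie above 0, and those of the other 6 genes include it.

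The patterns of the members over the 8 samples were set beside those of all named rows. Each row was taken relative to its Ctrl mean, and likeness was the root mean square difference over the 8 samples, in log2 units. The difference between the genotypes is part of this measure, so rows with a difference of similar size rank near a member. The ranks therefore do not by themselves show a shared pattern within the groups. The rows most like Selp were Glp1r (0.39), Susd4 (0.41), Cd34 (0.46), St8sia2 (0.54) and Apln (0.57). Glp1r, the receptor of glucagon-like peptide 1, measured 9.64, 9.08, 9.90 and 9.55 in Ctnnb1OE-EC samples and 6.22, 7.06, 6.08 and 7.51 in Ctrl samples. Ctrl 4 was the highest of the Ctrl group in both genes, but the lowest was Ctrl 3 for Glp1r and Ctrl 1 for Selp. Glp1r was ranked by likeness over these same samples, so a shared high sample follows in part from that choice. Cd34, a sialomucin of capillary endothelium, measured 10.727, 10.764, 10.998 and 10.604 in Ctnnb1OE-EC samples and 7.54, 7.95, 7.49 and 7.69 in Ctrl samples, with a narrower Ctrl spread than Selp.

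The rows most like Sele were Dusp2 (0.34), Samd5 (0.36), Ccn2 (0.37), Myc (0.37) and Vwf (0.39). Myc, a transcription factor and target of Wnt signaling, measured 7.79, 7.38, 8.71 and 8.71 in Ctnnb1OE-EC samples and 5.96, 6.04, 5.82 and 5.91 in Ctrl samples. Both Myc and Sele were highest in Ctnnb1OE-EC 3 and 4, but in Ctrl Myc was highest in sample 2 and Sele in sample 4. Vwf, von Willebrand factor, measured 9.87, 9.34, 11.09 and 11.15 in Ctnnb1OE-EC samples and 7.98, 9.45, 7.50 and 9.51 in Ctrl samples. Within Ctrl it was high in samples 2 and 4, the samples in which Sele was above 4. Myc and Vwf were ranked by likeness over these same samples, so shared high samples follow in part from that choice. The rows most like Vcam1 were Mir296 (0.19), Snhg6 (0.19), Slc41a2 (0.22), C630043F03Rik (0.23) and Rin1 (0.23), and those most like Aoc3 were Tnnt2 (0.33), Mmp8 (0.34), Aspn (0.34), Tagln (0.35) and Thbs1 (0.41).

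**Figure D3:**
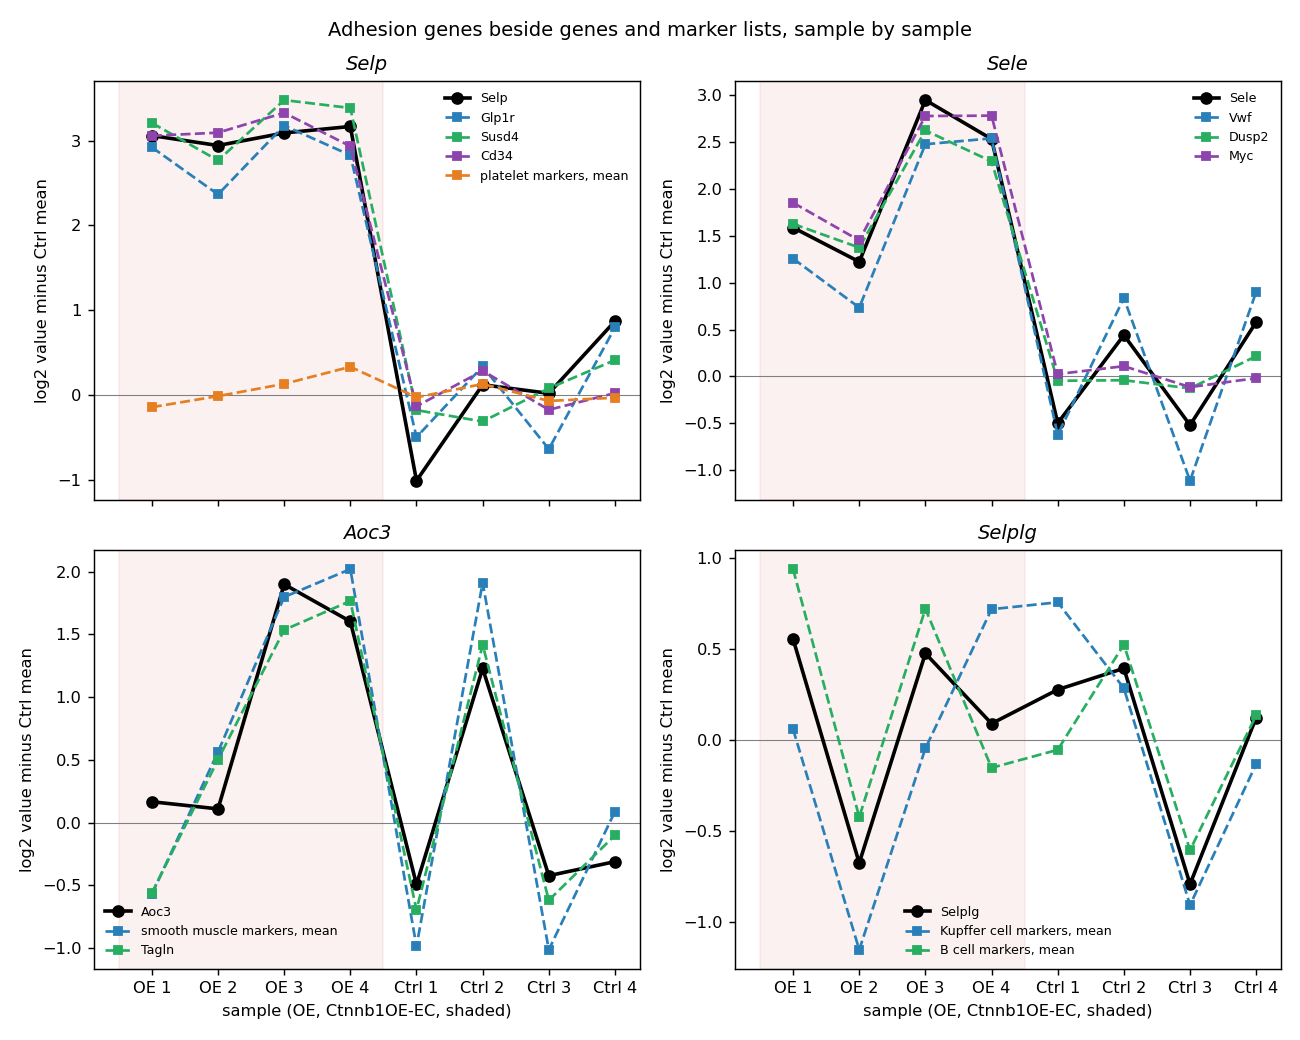
Log2 value minus the Ctrl mean (vertical axis) in Ctnnb1OE-EC samples 1 to 4 (shaded, left) and Ctrl samples 1 to 4 (right) for Selp, Sele, Aoc3 and Selplg (black), each with other genes or the mean of a marker list (colored). The platelet level runs from -0.14 to 0.33 in Ctnnb1OE-EC and from -0.07 to 0.13 in Ctrl, Sele is highest with Vwf in Ctnnb1OE-EC 3 and 4, and Aoc3 is high with the smooth muscle level in those samples and in Ctrl 2.

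Platelets also carry P-selectin, and other vessels carry both selectins, so markers of these cells were read beside them. The mean level of 8 platelet and megakaryocyte markers was -0.14, -0.01, 0.13 and 0.33 in Ctnnb1OE-EC samples and -0.03, 0.13, -0.07 and -0.03 in Ctrl samples. In this list 0 of 8 passed the test, 4 were above background in all 8 samples and 1 was at or below it in all. Pf4, platelet factor 4, averaged 5.17 ± 0.48 in Ctnnb1OE-EC and 5.01 ± 0.37 in Ctrl (SD, n = 4 each; limma adjusted p = 0.876). The mean level of 5 vein endothelial markers, members left out, ran from -1.21 to 0.05 in Ctnnb1OE-EC and from -0.35 to 0.33 in Ctrl, with 5 of 5 above background in all samples. The list was mixed. Vwf had a log2 difference of 1.75, Rspo3 one of -0.99, Wnt9b one of -1.02 and Thbd one of -0.03. Each of these had overlapping groups and did not pass the test. Ackr1, the chemokine-scavenging receptor of venules, fell by 1.53 on the log2 scale in Ctnnb1OE-EC (4.92 ± 0.32, against 6.45 ± 0.43 in Ctrl, SD, n = 4 each; limma adjusted p = 0.018). Selp was thus higher and Ackr1 lower in every Ctnnb1OE-EC sample than in any Ctrl sample. The call of Ackr1 was lost in limma without Ctnnb1OE-EC 1 (adjusted p = 0.0553), Ctrl 3 (0.0518) or Ctrl 4 (0.0663). It was also lost without Ctnnb1OE-EC 3 and 4 together (difference -1.81, adjusted p = 0.0701, limma) and with the replicate number as a block (0.0583). Of the 8 arterial markers 0 passed, and their mean was highest in Ctnnb1OE-EC 3 and 4, at 0.37 in both, against -0.21 to 0.13 in Ctrl.

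Markers of neutrophils and monocytes, the cells that selectins recruit, had their highest mean level in Ctnnb1OE-EC 3 and 4 (1.09 and 1.08), the samples with the highest Sele. The other Ctnnb1OE-EC samples were at 0.22 and -0.06, and Ctrl samples ran from -0.38 to 0.56. None of the 11 passed the test (0 of 11), 5 were above background in all samples, and 2 were at or below it in all. Markers of T and NK cells passed in 0 of 8 and ran from -0.44 to 0.47 in Ctnnb1OE-EC and from -0.16 to 0.25 in Ctrl. Among the LSEC markers, Lyve1, a hyaluronan receptor that lymphatic endothelium also carries, fell by 1.78 on the log2 scale (10.39 ± 0.51 in Ctnnb1OE-EC, against 12.16 ± 0.36 in Ctrl, SD, n = 4 each; limma adjusted p = 0.018) and was the 1 of 10 that passed. Its call was lost without Ctnnb1OE-EC 3 (adjusted p = 0.0712, limma), Ctrl 4 (0.0697) or Ctnnb1OE-EC 3 and 4 together (0.0756, difference -1.98). The LSEC level, a mean that includes Lyve1, was -0.42 to -0.17 in Ctnnb1OE-EC and -0.06 to 0.07 in Ctrl. The log2 differences of the other LSEC markers were smaller, from -0.30 (Mrc1) to 0.05 (Fcgr2b). Markers of stellate cells and fibroblasts passed in 0 of 8 cases and those of hepatocytes in 0 of 8, and the hepatocyte level was lowest in Ctnnb1OE-EC 3 and 4 (-1.95 and -1.13) and ran from -0.95 to 0.93 in Ctrl. At an unadjusted p of 0.05, limma passed 2928 of all 25428 rows. The members Selp and Vcam1, chosen on this contrast, were left out of the vein endothelial list here. In the rest of that list, limma passed Vwf, which was higher, and Wnt9b and Ackr1, which were lower, but not Rspo3 or Thbd. It also passed 4 of 10 LSEC markers (Stab1, Lyve1, Mrc1 and Flt4, all lower) and 3 of 5 lymphatic markers. The lymphatic ones were Prox1, which was higher, and Lyve1 and Flt4, which are also in the LSEC list. Further passes were 2 neutrophil and monocyte, 1 stellate cell and 1 arterial marker, and 0 of the platelet, T and NK, B, Kupffer, smooth muscle and hepatocyte markers. The part of these cells in the selectin values was not tested.

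Genes that work with the adhesion molecules were counted next. Of 97 measured genes in 7 lists, 2 were higher and 1 was lower in Ctnnb1OE-EC by limma at an adjusted p of 0.05, with a median log2 difference of -0.01, as over all rows. In the transmigration and junction list, 1 of 19 rose, 1 fell and 17 did not pass. Cd34, whose glycosylated form is a ligand of L-selectin in lymph nodes, rose by 3.10 (10.77 ± 0.16 in Ctnnb1OE-EC, against 7.67 ± 0.21 in Ctrl, SD, n = 4 each; limma adjusted p = 1.69e-05). Ceacam1, a cell adhesion molecule that inhibits immune and growth signals, fell by 1.08 (9.68 ± 0.28 in Ctnnb1OE-EC, against 10.77 ± 0.07 in Ctrl, SD, n = 4 each; limma adjusted p = 0.0092). Its call was lost with the replicate number as a block (adjusted p = 0.0576). Radixin (Rdx), which links adhesion molecules to actin, had a log2 difference of 0.65 and did not pass (limma adjusted p = 0.0569), though it did so without Ctnnb1OE-EC 2 (0.0364). Mcam, the gene of CD146 by which the cells were captured, had a difference of 0.65 with overlapping groups (9.80 ± 0.45 in Ctnnb1OE-EC and 9.15 ± 0.33 in Ctrl, SD, n = 4 each; limma adjusted p = 0.33).

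In the NF-kB list, whose pathway drives Sele, Icam1 and Vcam1 after cytokine stimulation, 1 of 17 rose and 0 fell. Il1r1, the signaling receptor of IL-1, was the gene that rose, by 0.84 (10.29 ± 0.19 in Ctnnb1OE-EC, against 9.45 ± 0.18 in Ctrl, SD, n = 4 each; limma adjusted p = 0.0219). That call was lost in limma without Ctnnb1OE-EC 1 (adjusted p = 0.0636), Ctrl 1 (0.0762), Ctrl 2 (0.0801) or Ctrl 4 (0.0508), with differences of 0.78 to 0.90. It was also lost without Ctnnb1OE-EC 3 and 4 together (difference 0.81, adjusted p = 0.128, limma) and with the replicate number as a block (0.0753). Nfkbia, the inhibitor that NF-kB itself induces, had a difference of 0.26 and overlapping groups (limma adjusted p = 0.383), and Nfkbie one of -0.36 (0.361). The list's mean level lay between 0.01 and 0.06 in Ctnnb1OE-EC and between -0.03 and 0.05 in Ctrl. Of 13 receptors, kinases and STATs of the IL-4 and IL-6 families, 0 passed, and the smallest p-values belonged to Jak2 (0.28, limma adjusted p = 0.306) and Il4ra (0.47, limma adjusted p = 0.47).

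Among 14 genes of Weibel-Palade bodies, the granules that store P-selectin, 0 passed the test. In 2 of them, Plat and Cd63, every Ctnnb1OE-EC value lay above every Ctrl value, and 3.55% of all rows separated in that direction. Plat, tissue plasminogen activator, had a log2 difference of 0.91 (6.67 ± 0.45 in Ctnnb1OE-EC and 5.76 ± 0.17 in Ctrl, SD, n = 4 each; limma adjusted p = 0.106). It passed without Ctnnb1OE-EC 2 (adjusted p = 0.0244, limma). Cd63, a membrane protein of the granules that holds P-selectin at the surface, had one of 1.22 (6.20 ± 0.53 in Ctnnb1OE-EC and 4.97 ± 0.50 in Ctrl, SD, n = 4 each; limma adjusted p = 0.138). Vwf, the cargo that forms the granules, differed by 1.75 with overlapping groups (10.36 ± 0.90 in Ctnnb1OE-EC and 8.61 ± 1.02 in Ctrl, SD, n = 4 each; limma adjusted p = 0.253). Without Ctnnb1OE-EC 3 and 4, the differences were 0.60 for Plat, 0.78 for Cd63 and 1.00 for Vwf. The level of the whole list was highest in Ctnnb1OE-EC 3 and 4 (0.51 and 0.53) and ran from -0.20 to 0.20 in Ctrl.

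Enzymes that build selectin ligands passed in 0 of 15 cases. C1galt1c1, the chaperone of the core O-glycan enzyme on which P-selectin ligands depend, had a difference of -0.74 (5.39 ± 0.23 in Ctnnb1OE-EC and 6.13 ± 0.23 in Ctrl, SD, n = 4 each; limma adjusted p = 0.0697). St3gal4, a sialyltransferase of selectin ligands, had one of 0.36 (limma adjusted p = 0.101), and the fucosyltransferase Fut7 was below background in all 8 samples. Of 15 counter-receptors on leukocytes, 0 passed, and Cd24a, a glycoprotein that P-selectin binds, had the smallest p (difference 0.65, limma adjusted p = 0.482). Itgb2, the shared chain of the β2 integrins that bind ICAM-1, was picked after its values were seen because it followed Selplg. It measured 7.68, 6.21, 7.22 and 7.59 in Ctnnb1OE-EC samples and 7.25, 7.25, 5.98 and 7.35 in Ctrl samples, lowest in the same pair, Ctnnb1OE-EC 2 and Ctrl 3. Of the 4 measured paralogues of the members, 0 passed, with differences between -0.12 (Aoc1) and 0.22 (Icam4), and Icam5 and Aoc1 were not above background in any sample. Of the lists with 0 calls, those of Weibel-Palade bodies, ligand synthesis and IL-4 and IL-6 signaling held 4, 4 and 1 genes at an unadjusted limma p under 0.05, and those of counter-receptors and paralogues held 0. Over all rows, 2928 of 25428 were under that p. The Weibel-Palade genes (Plat, Cd63, Vwf and Sytl4) and Jak2 were higher in Ctnnb1OE-EC. Among the ligand synthesis genes, St3gal4 was higher, and C1galt1c1, Fut7 and Slc35c1 were lower.

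**Figure D4:**
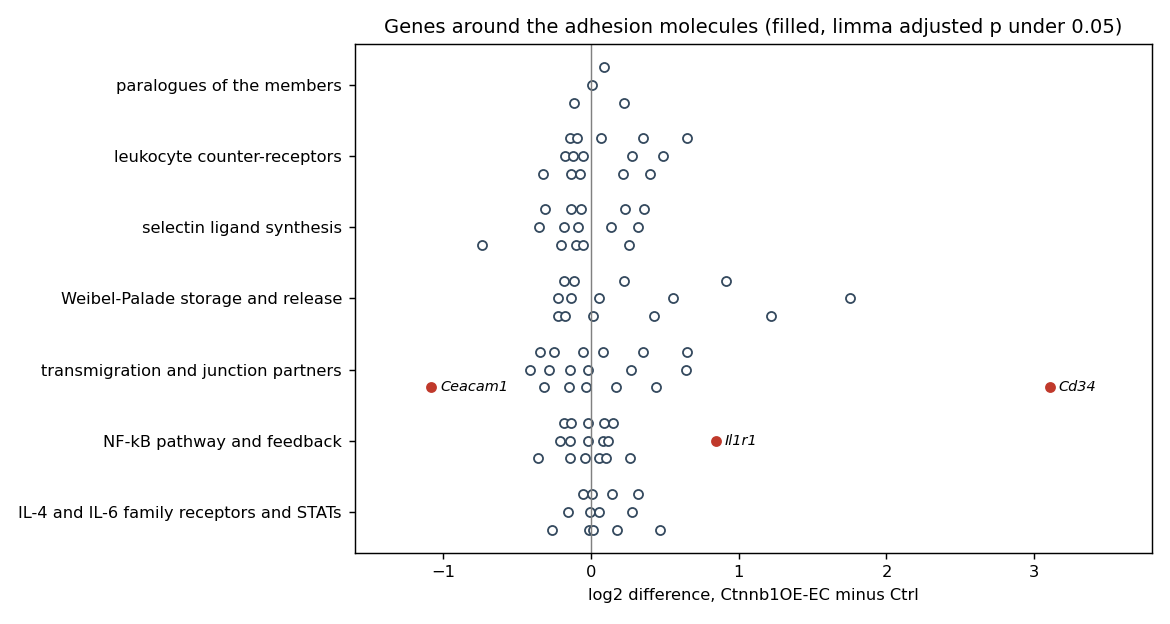
Log2 difference between Ctnnb1OE-EC and Ctrl (horizontal axis) of 97 genes in 7 lists (rows), 1 point per gene, spread vertically for legibility, with genes past a limma adjusted p of 0.05 filled. The filled points are Cd34 (3.10), Il1r1 (0.84) and Ceacam1 (-1.08), and the unfilled point farthest from 0 is Vwf (1.75).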

How the data were processed

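RNA of LSECs from 4 Ctnnb1OE-EC and 4 Ctrl samples was hybridized to Affymetrix MoGene-2_0-st arrays. Per the methods, a custom definition file assigned the probes to Entrez genes, 1 row each. The authors deposited log2 values, made by robust multiarray analysis (RMA) background correction and quantile normalization. The log2 scale was taken from the method and the range of the values. Groups came from the labels, which call the samples biological replicates pooled from 2 mice. No sample column was left out, and 0 columns belonged to other samples. Of 25428 rows, 24705 had 1 gene symbol, and 723 were tested but are not named here. The number of arrays limits the precision.

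Differences between the genotypes were estimated in R 4.3.3 by limma 3.58.1 (group means, eBayes without trend, two-sided, Benjamini-Hochberg adjustment over all rows, threshold 0.05), with no filter, further normalization or covariate. The script was tested on simulated data. The members and gene lists were chosen with earlier results of these data known. Of 105 listed genes around the members, 97 are named and measured here. For the level of a list, each gene was set relative to its Ctrl mean and the genes, members left out, were averaged within a sample. Named in the text are all members, listed genes past the threshold or with the smallest p, markers past it or with the largest difference (those only in part), the 5 rows most like each member with an absolute difference of at least 0.5, and Ctnnb1, Axin2 and Clec4g. Some other listed genes and markers are named beside their lists. Alternatives were a one-way analysis of variance per gene, a test the methods name, run here rather than in the software of the study, a trended and robust prior, array weights, renormalization, centring, filters on low rows, other thresholds, a replicate block, and samples left out. Replicate numbers were not treated as pairs.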

Additional observations from a re-analysis of the deposited data

Results flagged for a closer look

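Among 122 groups of 4 samples (61 named genes), 6 held a sample whose gap to the nearest other exceeded Dixon's 95% critical value, and chance flags about 1 in 20 groups. The 1 member among them was Aoc3, whose Ctrl 2 value of 4.574 lay far above the other Ctrl samples (2.853 to 3.035), in the Ctrl sample with the highest smooth muscle level. C1galt1c1 was at 5.046 in Ctnnb1OE-EC 3, below the others of its group (5.505 to 5.509), and Jam3, a junctional adhesion molecule, was at 5.964 in Ctnnb1OE-EC 2, below 6.205 to 6.212. The T cell gene Cd3g was at 3.787 in Ctnnb1OE-EC 4, below 5.555 to 5.804. In Ctrl, Aoc1 was at 2.685 in sample 2, against 2.603 in the others and below background, and Clec4g was at 12.92 in sample 1, against 12.87 in the others. The other Clec4g values were identical (12.8711), and Aoc1 was identical in Ctrl 3 and Ctrl 4 (2.60254). With such ties a small gap is enough for a flag.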

How the results depend on the processing

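The member differences kept their sign under all 14 alternatives run for them, apart from Selplg (4 changes of sign, -0.15 to 0.37) and Madcam1 (2 changes, -0.36 to 0.03). Among these alternatives, the replicate block cannot change a difference in this balanced design. Renormalization and centring of the already normalized values barely changed one, so they say little about stability. Selp ran from 2.73 to 3.36, Sele from 1.41 to 2.36, Vcam1 from 0.23 to 0.83 and Aoc3 from 0.14 to 1.35. Left out after the data were seen, Ctnnb1OE-EC 3 and 4 together with Ctrl 2, the samples highest in smooth muscle markers, gave a Vcam1 difference of 0.23 and a Madcam1 difference of -0.36. The number of members called was 1 (Selp). It was 0 in a one-way analysis of variance per gene run here on the deposited table, without Ctnnb1OE-EC 3 and 4, and without these and Ctrl 2. With Sele added it was 2 with rows under the median left out (284 rows called in all) and with rows not above background left out (261). The same 2 were called at an adjusted p of 0.1 (386 rows in all). With single samples left out it was 1 to 2, and it was 2 without Ctnnb1OE-EC 2 (223 rows in all). Since the members were chosen on this contrast, nothing is read from these counts.

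Calls over all rows numbered 234, against 20 in the analysis of variance, 61 without Ctnnb1OE-EC 3 and 4, 23 without these and Ctrl 2, 68 and 386 at adjusted p thresholds of 0.01 and 0.1, and 92 to 223 with single samples left out. Calls among the 97 listed genes numbered 3, against 1 in the analysis of variance, 6 with the trended and robust prior, 5 without rows under the median, 1 without Ctnnb1OE-EC 3 and 4 and Ctrl 2, 5 at 0.1, and 2 to 5 with single samples left out. With the replicate number as a block, 86 rows, 1 member and 1 listed gene were called. Same-numbered samples correlated at 0.253, -0.177, 0.0275 and -0.153 in their deviations from the group means, so the numbers were not taken as pairing the samples. In the analysis of variance, the adjusted p was 0.0507 for Axin2, 0.0783 for Ceacam1, 0.103 for Il1r1, 0.127 for Ackr1 and 0.13 for Lyve1. The methods name this test but the software and settings of the study were not rerun, so these counts are not those of the study. The signal of Sele, Madcam1 and Aoc3 near background limits what their values can show.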
